A study of Mus musculus with 16 samples.

Results

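The mitochondrial genome encodes 37 of the 49114 genes that could be named in these libraries: 13 mRNAs, 2 rRNAs and 22 tRNAs. They were taken by symbol, as every gene whose symbol begins with mt-. The set was proposed because its share of the library stood high in the cultures given androgen together with an androgen receptor antagonist. The 2 comparisons that involve those cultures are therefore a description for these genes, with no test. All 37 genes were listed, and 17 passed the filter on low counts: every mRNA, both rRNAs, and the tRNA genes mt-Tp and mt-Ts1. The other 20 tRNA genes did not pass.

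Cultured neural progenitor cells from E18.5 mouse cortex were compared in 4 groups of 4 replicates. KO DHT+ENZ cells had received a lentivirus with Cas9 and a guide RNA against Chd1, a chromatin remodeller, and were given 10 µM enzalutamide (ENZ, an androgen receptor antagonist) 30 min before 10 nM dihydrotestosterone (DHT, an androgen) for 24 h. KO DHT cells carried the same lentivirus and were given DHT after DMSO, and KO DMSO cells the same lentivirus and DMSO only. WT DMSO cells, labelled wild type, carried a lentivirus with Cas9 alone and were given DMSO, so Cas9, a lentivirus and puromycin selection were common to all groups. The knockout cells were an edited population and the labels name no clone. The embryos were of 2 litters, and which replicate belonged to which litter is not given. There was no culture with ENZ alone and no wild-type culture with DHT.

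Mitochondrial DNA is transcribed from both strands as long precursors. Most of the mRNAs and rRNAs are flanked by tRNAs, at which the precursor is cut, and most of the mRNAs then receive short poly(A) tails. The mRNAs encode core subunits of respiratory complexes I, III, IV and V, which are otherwise built from nuclear-encoded proteins, and the rRNAs form the mitochondrial ribosome that translates them. The heavy-strand promoter gives 28 of the genes. The light-strand promoter gives 9, which are mt-Nd6 and 8 tRNAs.

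The libraries were selected for polyA RNA, so the sequences at the ends of the mRNAs and the overlaps between genes bear on what was counted. All sequences here are GENCODE M21 transcripts, matched by transcript identifier, and the listed lengths agreed for 37 of 37 genes. The last 20 bases of some mRNAs follow, with the bases of the last codon in capitals. As annotated, the first pair ends in a full stop codon, though an annotated end need not be the point where the precursor is cut. The other 3 end in a single T, and the stop codon of such mitochondrial mRNAs is known to be completed by the added poly(A) tail.
mt-Co1 3′ end: cctatgtaaaagtaaaaTAA
mt-Nd1 3′ end: gagtaccaccatacataTAG
mt-Co3 3′ end: catttattgatgaggatctT
mt-Nd4 3′ end: aattacaggcctgacaataT
mt-Cytb 3′ end: aatactaaaattatatccaT

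Some mRNA genes share bases, and reads that fall in a shared stretch were divided between the genes by the authors' estimation. The end of mt-Atp8 and the start of mt-Atp6, both subunits of ATP synthase, share 43 bases, shown in capitals. The end of mt-Nd4l and the start of mt-Nd4, both subunits of complex I, share 7 bases, also in capitals. No tRNA gene lies between the genes of either pair, so their separate values need not be levels of separate RNAs. On opposite strands, mt-Nd5 and mt-Nd6 share 14 bases.
mt-Atp8 end: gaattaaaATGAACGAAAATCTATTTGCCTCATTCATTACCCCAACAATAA
mt-Atp6 start: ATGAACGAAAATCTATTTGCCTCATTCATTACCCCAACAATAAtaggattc
mt-Nd4l end: tctcaacctactacaATGCTAA
mt-Nd4 start: ATGCTAAaaattattcttccct

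The 2 tRNA genes that passed the filter are both transcribed from the light-strand promoter. They are shown whole, in lower case with nothing marked, because they are far shorter than the sequenced fragments, whose mean length was 281 to 346 bases.
mt-Tp: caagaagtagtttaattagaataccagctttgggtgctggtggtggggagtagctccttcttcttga
mt-Ts1: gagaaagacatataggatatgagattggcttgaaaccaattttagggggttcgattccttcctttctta
A fragment counted for such a gene must reach beyond it or be very short. The sources used here do not say whether counting used strand. Without strand, reads of the light-strand genes cannot be told apart from reads of RNA on the opposite strand.

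Depth was 31.8 to 36.9 M estimated counts in 15 libraries and 20.2 M in WT DMSO replicate 1. Chd1 RNA averaged 66.3 ± 8.05 CPM in KO DHT+ENZ, 72.3 ± 1.76 in KO DHT, 66.2 ± 3.99 in KO DMSO and 66.8 ± 6.5 in WT DMSO (SD, n = 4 each; CPM, counts per M counted in the library). Editing of the DNA can leave the amount of a transcript as it was, so this level does not check the labels. Markers of neural progenitors were present in every library, with 9 of 9 above the filter and a summed level of 6852 to 8919 CPM. Marker sums of microglia, endothelium, and mural cells with fibroblasts were at most 7.14 CPM in any library. Neuron markers summed to 783 to 1389 CPM, astrocyte markers to 56.0 to 250 CPM and oligodendrocyte lineage markers to 1734 to 2470 CPM, with overlapping ranges in all 4 groups. Of these markers, 5 of 6, 3 of 4 and 5 of 6 passed the filter in that order. Sox10, of the oligodendrocyte lineage, had 0 counts in KO DHT+ENZ. WT DMSO replicate 1 stood apart from the others. Its 7 listed nuclear-encoded RNAs that normally carry no poly(A) tail, such as the 7SL RNA genes Rn7s1 and Rn7s2, summed to 942 CPM, against 0.899 to 12.1 CPM in the other 15 libraries. The 69 replication-dependent histone genes, whose mRNAs also lack such tails, summed to 245 CPM in it, within the 196 to 273 CPM of the others. Results that rest on it are given with and without it.

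By count, mt-Co1, the catalytic core of cytochrome c oxidase, averaged 10645 CPM over the 16 libraries. CPM grows with gene length, so levels of different genes were compared in the deposited TPM values, which are per length. The leading mRNAs overlapped on this scale. Over the 15 libraries other than WT DMSO replicate 1, mt-Co3 had 10520 to 15237 TPM, mt-Co1 9845 to 14487, mt-Co2 8532 to 15628 and mt-Atp6 8138 to 13985. These 4 neighbours did not part from each other. mt-Cytb, the complex III subunit, followed at 5859 to 9737 TPM and the complex I mRNA mt-Nd1 at 4245 to 7194, each overlapping its neighbour in the order.

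The remaining complex I mRNAs were lower per length. The ranges over the same 15 libraries were 2466 to 5236 TPM for mt-Nd2, 2138 to 4203 for mt-Nd4 and 682 to 2136 for mt-Nd5, the longest mRNA at 1824 bases. The light-strand mRNA mt-Nd6 had 1588 to 3357 TPM. Values of mt-Nd3, mt-Nd4l and mt-Atp8 are uncertain per length. At 348, 297 and 204 bases they are close to the fragment length, and the median effective length by which TPM divides was 67.5, 55.3 and 42.1 bases. The rRNAs were low per length in these polyA libraries, with 438 to 845 TPM for mt-Rnr2 (16S rRNA) and 129 to 251 TPM for mt-Rnr1 (12S rRNA), ranges that did not overlap.

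Most of the 22 tRNA genes were barely counted. Together they made up 0.0382 ± 0.00288% of the mitochondrial counts in KO DHT+ENZ, 0.0293 ± 0.00665% in KO DHT, 0.0281 ± 0.00277% in KO DMSO and 0.044 ± 0.0222% in WT DMSO (SD, n = 4 each). Without WT DMSO replicate 1, the WT DMSO share of the tRNA genes was 0.0334 ± 0.00769% (SD, n = 3). Nearly all of the tRNA count was mt-Tp, the proline tRNA gene, with 189 to 564 counts in each library. mt-Ts1, a serine tRNA gene, had 4 to 34 counts in each library. No other tRNA gene passed 12 counts in any library, and mt-Td, mt-Tr and mt-Ts2 had 0 counts in all 16. A count of 0 allows up to 3 counts in a library.

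Composition varied less for some abundant genes than for others across the 15 libraries. mt-Co1 held 28.8% to 32.2% of the mitochondrial counts, mt-Cytb 11.9% to 14.4%, mt-Co3 10.7% to 14.5% and mt-Nd1 6.76% to 8.28%. The range was wider for mt-Co2, at 5.87% to 10.8%, and for mt-Nd5, at 2.5% to 5.48%. By complex, complex IV mRNAs made up 50.1 ± 1.02% in KO DHT+ENZ, 51.4 ± 3.48% in KO DHT, 50.2 ± 2.03% in KO DMSO and 53.2 ± 1.84% in WT DMSO (SD, n = 4 each). Complex I mRNAs made up 27 ± 1.06%, 25.4 ± 2.96%, 26.4 ± 2.26% and 24.4 ± 1.69% in the same 4 groups in that order. Without WT DMSO replicate 1, the WT DMSO values were 52.6 ± 1.71% for complex IV and 24.2 ± 2.04% for complex I (SD, n = 3). WT DMSO replicate 1 lay outside the range of the others for several genes: its mt-Co1 share was 38.6%, its mt-Atp6 share 2.72% and its mt-Co3 share 6.32%.

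**Figure D1:**
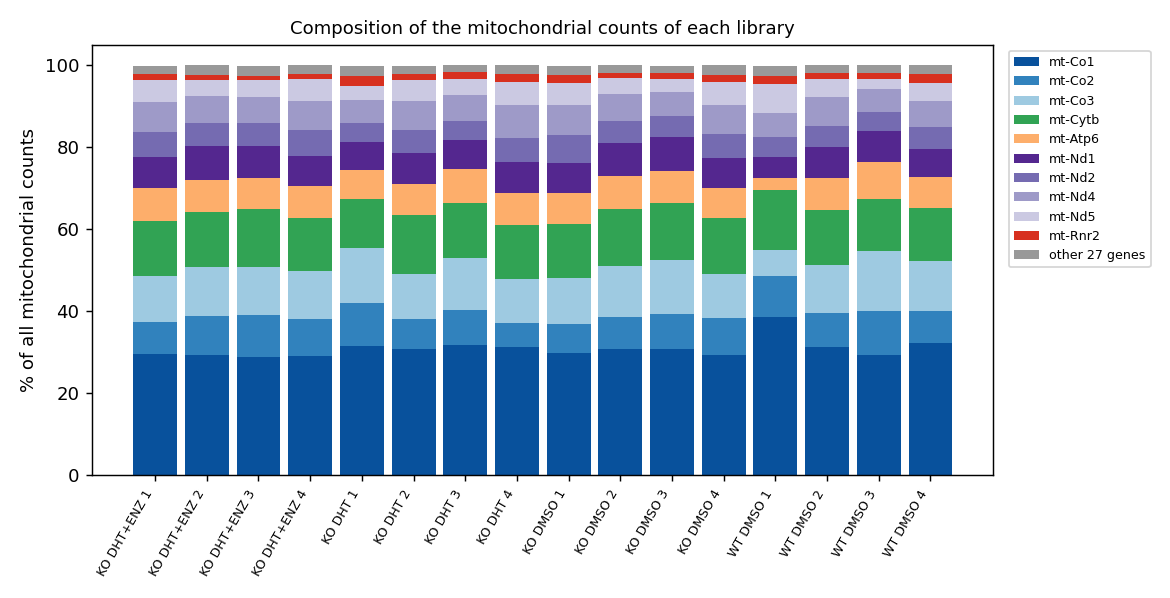
Share of all mitochondrial counts (percent, vertical axis) held by each of 10 genes and by the other 27 together, as stacked bars for the 16 libraries. In the 15 libraries other than WT DMSO replicate 1, mt-Co1 lies between 28.8% and 32.2% and mt-Co2 between 5.87% and 10.8%, while WT DMSO replicate 1 has more mt-Co1 (38.6%) and less mt-Atp6 (2.72%).

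The mitochondrial share of the whole library was the value that set the KO DHT+ENZ cultures apart. It was 4.28%, 4.30%, 4.45% and 4.27% in KO DHT+ENZ replicates 1 to 4, against 2.91%, 3.59%, 2.88% and 3.49% in KO DHT. It was 3.56%, 3.71%, 3.5% and 3.54% in KO DMSO, against 1.33%, 3.56%, 3.22% and 3.29% in WT DMSO. All 4 KO DHT+ENZ libraries lay above all 12 others, which is what the genes were chosen for. KO DHT spread more widely than KO DMSO and overlapped it. The 95% Wilson interval of WT DMSO replicate 1, the shallowest library, was 1.326% to 1.336%. Counting error was thus small beside the spread between replicates, and such intervals cover counting error only.

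Libraries with the same replicate number were set against each other as pairs, although whether the numbers mark pairs was not tested. The KO DHT+ENZ share exceeded that of KO DHT by 1.37, 0.71, 1.57 and 0.78 percentage points in pairs 1 to 4, and that of KO DMSO by 0.72, 0.59, 0.94 and 0.73 points. The difference from KO DHT was larger in pairs 1 and 3, where KO DHT was low, while the KO DHT+ENZ values were close together. These 2 comparisons share the KO DHT+ENZ libraries and are not independent. Mean fragment length was 281 to 341 bases in KO DHT+ENZ, 321 to 344 in KO DHT and 314 to 343 in KO DMSO, and its part in the differences was not tested. In bulk RNA, a change in the number of cells of a kind and a change in the RNA per cell cannot be told apart. In polyA libraries, the amount of an RNA and how well its tail is captured cannot be told apart either.

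**Figure D2:**
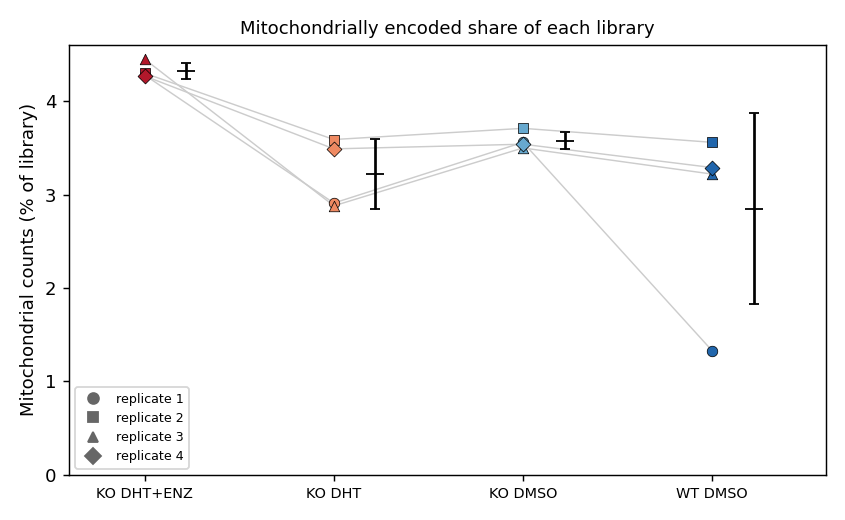
Mitochondrial counts as a percent of all estimated counts (vertical axis) in each library, by group. Symbols mark replicate numbers, grey lines join same-numbered libraries, and bars give the mean ± SD (n = 4). The KO DHT+ENZ libraries sit between 4.27% and 4.45%, above all the others, and WT DMSO replicate 1 sits lowest at 1.33%.

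ENZ with DHT was set against DHT alone to see how the androgen receptor antagonist altered the DHT-treated knockout cells. All 13 mRNAs had a higher mean in KO DHT+ENZ than in KO DHT, with log2 fold changes of 0.38 to 0.86 and a median of 0.55, beside a median of -0.003 over all 16969 genes tested. In CPM, 12 of them were higher in 4 of 4 pairs, all but mt-Nd5, as were 8.72% of all genes tested. For mt-Nd3, among those 12, this did not hold once a nuclear copy, described further on, was added. For 9 of the 13 mRNAs the groups did not overlap, which held in that direction for 1.97% of all genes tested. Since the set was chosen on this difference, nothing is read from these counts.

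All 3 complex IV mRNAs, for cytochrome c oxidase, had groups that did not overlap. mt-Co1 had 12686, 12621, 12815 and 12411 CPM in KO DHT+ENZ, against 9205, 11074, 9183 and 10872 CPM in KO DHT. Every KO DHT+ENZ library was above every KO DHT library, with a log2 fold change of 0.38 (SE 0.19), the smallest of the 13 mRNAs. mt-Co3 had 4799, 5163, 5250 and 4912 CPM in KO DHT+ENZ, against 3896, 3945, 3674 and 3809 CPM in KO DHT. It was again without overlap, with a log2 fold change of 0.45 (SE 0.34). mt-Co2 had 3382, 4085, 4558 and 3906 CPM in KO DHT+ENZ, against 3024, 2618, 2422 and 2048 CPM in KO DHT. Its log2 fold change of 0.71 (SE 0.24) is uncertain because its reads are divided with a nuclear copy, described further on.

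In complex III, mt-Cytb had 5692, 5776, 6244 and 5614 CPM in KO DHT+ENZ, against 3463, 5186, 3824 and 4589 CPM in KO DHT. The groups did not overlap and the log2 fold change was 0.50 (SE 0.22). In complex V, mt-Atp6 averaged 3403 ± 53.1 CPM in KO DHT+ENZ and 2493 ± 295 CPM in KO DHT (SD, n = 4 each), without overlap, with a log2 fold change of 0.50 (SE 0.39). WT DMSO replicate 1 shares the estimate of spread, so the SE depends on it even in this comparison. Without it, the SE was 0.11 for mt-Atp6, 0.11 for mt-Co3, 0.20 for mt-Nd3 and 0.40 for mt-Atp8, with their log2 fold changes unchanged. mt-Atp8, the partner of mt-Atp6, had 31.5, 73.9, 82.8 and 52.2 CPM in KO DHT+ENZ, against 26.4, 61.2, 19.9 and 31.1 CPM in KO DHT. These values overlapped although each pair was higher, and the log2 fold change of 0.86 (SE 0.38) was the largest of the mRNAs and among the least certain.

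The 7 complex I mRNAs ran from 0.49 to 0.77 in log2 fold change, and 4 of them had groups that did not overlap. mt-Nd2 averaged 2557 ± 96.3 CPM in KO DHT+ENZ and 1681 ± 391 CPM in KO DHT (SD, n = 4 each), a log2 fold change of 0.66 (SE 0.25). mt-Nd1 averaged 3327 ± 183 and 2357 ± 413 CPM in these groups in that order, and mt-Nd4 averaged 2981 ± 170 and 2195 ± 566 CPM. Their log2 fold changes were 0.55 and 0.49, again without overlap. mt-Nd5, at 0.51 (SE 0.24), overlapped in CPM and was higher in 3 of 4 pairs, whereas with TMM scaling it was higher in all 4 without overlap. mt-Nd6 is the mRNA from the light-strand promoter, and its log2 fold change of 0.55 (SE 0.17) lay within the range of the heavy-strand mRNAs. Without strand, its reads cannot be told apart from those of RNA on the opposite strand. mt-Nd3 and mt-Nd4l, both short, had overlapping groups and log2 fold changes of 0.77 (SE 0.55) and 0.71 (SE 0.34). Reads of mt-Nd3 are also divided with a nuclear copy, described further on.

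The rRNAs parted from each other, although both lie at the start of the heavy-strand transcript with the valine tRNA gene between them. mt-Rnr1 had 112, 100, 104 and 99.5 CPM in KO DHT+ENZ, against 80.9, 61.1, 61.8 and 77.1 CPM in KO DHT. It was higher in all 4 pairs without overlap, with a log2 fold change of 0.63 (SE 0.11). mt-Rnr2 had 577, 463, 442 and 512 CPM in KO DHT+ENZ, against 737, 535, 508 and 737 CPM in KO DHT. It was lower in all 4 pairs, as were 21.1% of all genes tested, with overlap between the groups and a log2 fold change of -0.28 (SE 0.21). mt-Rnr2 was the only one of the 17 tested genes with a negative value here. As a share of the mitochondrial counts it was 1.35%, 1.08%, 0.995% and 1.20% in KO DHT+ENZ, against 2.53%, 1.49%, 1.77% and 2.11% in KO DHT.

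The ratio of mt-Rnr1 to mt-Rnr2 counts put the same pattern in a single value per library. It was 0.195, 0.217, 0.236 and 0.194 in KO DHT+ENZ, against 0.110, 0.114, 0.122 and 0.105 in KO DHT. It was 0.098, 0.144, 0.115 and 0.107 in KO DMSO, against 0.213, 0.133, 0.153 and 0.099 in WT DMSO. The KO DHT+ENZ values were above all others except that of WT DMSO replicate 1, where both rRNAs had their lowest CPM.

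**Figure D3:**
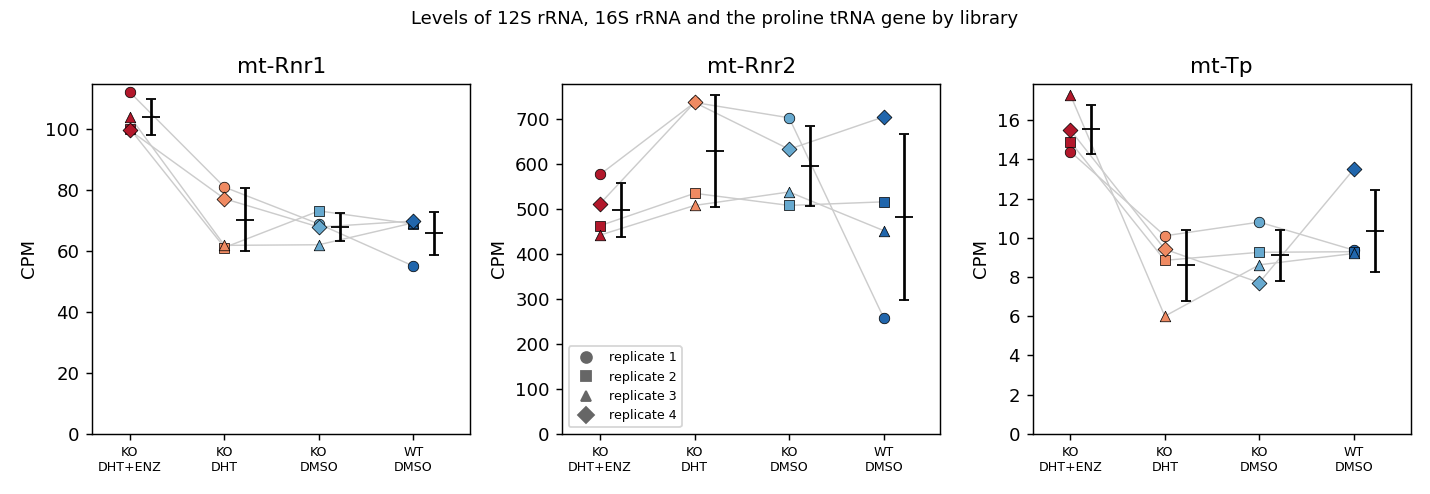
Levels (CPM, vertical axes from 0) of mt-Rnr1, mt-Rnr2 and mt-Tp in each library by group, with replicate numbers as symbols, same-numbered libraries joined in grey and the mean ± SD (n = 4) as bars. mt-Rnr1 and mt-Tp are highest in KO DHT+ENZ without overlap with KO DHT, while mt-Rnr2 is lower in KO DHT+ENZ than in KO DHT in each of the 4 pairs.

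mt-Tp had the largest log2 fold change of the 17 genes, 0.91 (SE 0.16). Its level was 14.4, 14.9, 17.3 and 15.5 CPM in KO DHT+ENZ, against 10.1, 8.85, 6.0 and 9.42 CPM in KO DHT, without overlap. mt-Ts1 was near the limit of counting, at 0.119 to 0.859 CPM in KO DHT+ENZ and 0.211 to 0.558 CPM in KO DHT. How many members passed edgeR's threshold in the fit over all genes is given only as a description, since the set was chosen on this difference and is not tested by it. The 2 that passed were mt-Rnr1 and mt-Tp, both higher, where 0.0766% of all genes tested were called higher. The number called depended on WT DMSO replicate 1, which shares the estimate of spread. Without that library, 4 members were called, mt-Nd2 and mt-Nd6 being added, where 0.673% of all genes were called in either direction. With the replicate number as a block, 2 members were called, and with the block and without that library 14 were, including mt-Rnr2, which was lower, where 8.58% of all genes were called. No mitochondrial gene was called when KO DHT+ENZ replicate 2, 3 or 4, or KO DHT replicate 2, 3 or 4, was left out, and 1 was (mt-Tp) without KO DHT+ENZ replicate 1.

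**Figure D4:**
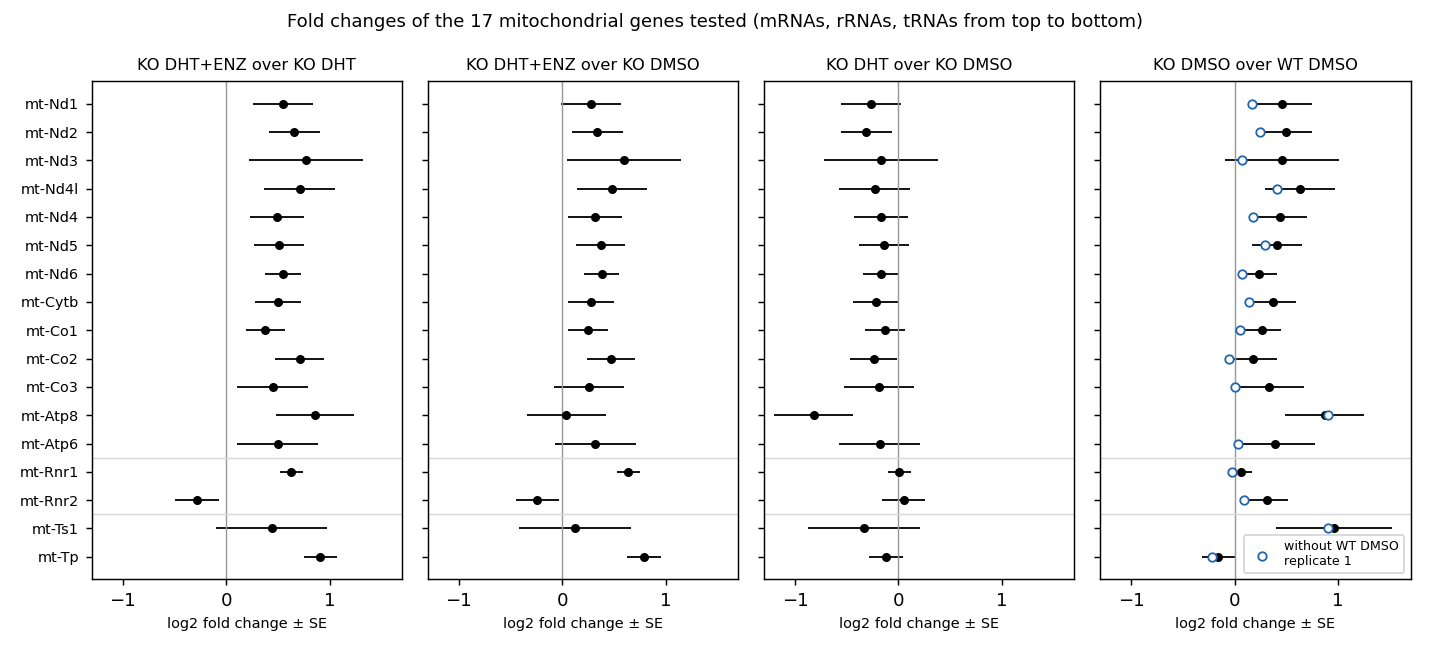
Log2 fold change (horizontal axes) with its SE for the 17 genes that passed the filter, in 4 comparisons. Filled points use all libraries, and open points in the last panel leave out WT DMSO replicate 1. The 13 mRNAs lie right of 0 in the first panel (0.38 to 0.86), mt-Rnr2 lies left of it at -0.28, and without WT DMSO replicate 1 most mRNA values of KO DMSO over WT DMSO move toward 0.

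Set against vehicle, the KO DHT+ENZ cultures showed smaller differences of the same kind. The 13 mRNAs had log2 fold changes of 0.04 to 0.60 over KO DMSO, with a median of 0.32, beside 0.006 over all genes tested. Of these mRNAs, 10 were higher in 4 of 4 pairs, as were 12.7% of all genes tested. For 9 the groups did not overlap in CPM, against 1.9% of all genes tested in that direction, and for 7 with TMM scaling, where mt-Nd1 and mt-Co3 overlapped. mt-Co1 averaged 12633 ± 169 CPM in KO DHT+ENZ and 10791 ± 420 CPM in KO DMSO (SD, n = 4 each), a log2 fold change of 0.25 (SE 0.19). mt-Cytb averaged 5831 ± 283 and 4869 ± 142 CPM in these groups in that order, a log2 fold change of 0.28 (SE 0.22). Both were without overlap. mt-Atp8 was the mRNA with the smallest value, 0.04 (SE 0.38), and was higher in 2 of 4 pairs. Its sign turned when single libraries were left out (-0.17 to 0.38) and with the replicate block (-0.01).

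The rRNAs parted in this comparison too. mt-Rnr1 averaged 104 ± 5.93 CPM in KO DHT+ENZ and 67.9 ± 4.57 CPM in KO DMSO (SD, n = 4 each), with a log2 fold change of 0.64 (SE 0.11). mt-Rnr2 averaged 499 ± 59.7 CPM in KO DHT+ENZ and 595 ± 89.7 CPM in KO DMSO, was lower in 4 of 4 pairs, as were 19.4% of all genes tested, and had a log2 fold change of -0.24 (SE 0.21). mt-Tp averaged 15.5 ± 1.26 and 9.09 ± 1.29 CPM in these groups in that order, a log2 fold change of 0.79 (SE 0.16). Again as a description and no test of the set, the 2 members past edgeR's threshold were mt-Rnr1 and mt-Tp, both higher, where 0.053% of all genes were called higher. No member was called when KO DHT+ENZ replicate 1, 2 or 4, KO DMSO replicate 1, 3 or 4, KO DHT replicate 2 or WT DMSO replicate 2 was left out. mt-Rnr1 alone was called without KO DHT+ENZ replicate 3, KO DHT replicate 1 or 4, KO DMSO replicate 2 or WT DMSO replicate 3. Without WT DMSO replicate 1 both were called, where 0.569% of all genes were. With the replicate block and without WT DMSO replicate 1, 11 members were called, where 7.24% of all genes were.

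Within the mitochondrial counts, some genes changed place in each of the 4 pairs. mt-Co1 held a smaller share, at 29.6%, 29.4%, 28.8% and 29.1% in KO DHT+ENZ, against 31.6%, 30.8%, 31.9% and 31.2% in KO DHT. Its share in KO DMSO was 29.9%, 30.7%, 30.7% and 29.4%, also above KO DHT+ENZ in every pair. The mt-Nd2 share went the other way against KO DHT, at 6.11%, 5.68%, 5.66% and 6.21% in KO DHT+ENZ and 4.64%, 5.54%, 4.64% and 5.87% in KO DHT. The mRNAs together made up 98.6 ± 0.15% of the mitochondrial counts in KO DHT+ENZ and 97.8 ± 0.52% in KO DHT (SD, n = 4 each). The rRNAs made up 1.40 ± 0.165% and 2.19 ± 0.493% in these groups in that order. Shares of a fixed sum are not independent of each other.

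The comparison of DHT with vehicle in knockout cells was not used to choose the genes, and edgeR called none of the 17 (0.0% of all genes tested were called; 193 of 16969 genes, or 1.14%, had an unadjusted p under 0.05, 1 of them a member). DESeq2 called 0 genes. All 13 mRNAs had a lower mean in KO DHT than in KO DMSO, with log2 fold changes of -0.82 to -0.13, a median of -0.19 beside -0.002 over all genes, and an edgeR adjusted p of 1 each. mt-Nd1 had 1968, 2769, 2039 and 2655 CPM in KO DHT, against 2665, 2950, 2898 and 2617 CPM in KO DMSO. Its values overlapped, and its log2 fold change was -0.27 (SE 0.29), or -0.28 (SE 0.13) without WT DMSO replicate 1. mt-Cytb had 3463, 5186, 3824 and 4589 CPM in KO DHT, against 4748, 5073, 4844 and 4810 CPM in KO DMSO. Replicates 1, 3 and 4 of KO DHT were below the KO DMSO range, and replicate 2 was above it. None of the mRNAs was lower in 4 of 4 pairs in CPM, where 8.69% of all genes tested were. With TMM scaling, mt-Nd1, mt-Co3 and mt-Nd3 were.

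mt-Atp8 had the largest difference with DHT and was the member with an unadjusted p under 0.05. It had 26.4, 61.2, 19.9 and 31.1 CPM in KO DHT, against 63.7, 39.9, 37.9 and 101 CPM in KO DMSO. The ranges overlapped and the pair of replicate 2 went the other way, with a log2 fold change of -0.82 (SE 0.38; adjusted p = 1, edgeR). For mt-Atp6, with which it shares bases, the log2 fold change was -0.18 (SE 0.39), and the values need not be levels of separate RNAs. The rRNAs did not share the lower values of the mRNAs. mt-Rnr1 had a log2 fold change of 0.01 (SE 0.11) and mt-Rnr2 of 0.05 (SE 0.21), each with an adjusted p of 1 in edgeR. mt-Tp and mt-Ts1 had -0.12 (SE 0.16) and -0.33 (SE 0.54), also with an adjusted p of 1 in edgeR. With the replicate block, no member passed in this comparison either, the lowest adjusted p being 0.606, for mt-Atp8.

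The knockout against control under vehicle also gave no call among the 17 (0.0% of all genes tested were called by edgeR; 508 of 16969 genes, or 2.99%, had an unadjusted p under 0.05, 1 of them a member). DESeq2 also called 0 genes. The mRNAs had log2 fold changes of 0.18 to 0.87 with a median of 0.41, and WT DMSO replicate 1 decided most of this. Without it the range was -0.05 to 0.90 and the median 0.14, with an adjusted p of 1 in edgeR for every member both ways. mt-Cytb had 4748, 5073, 4844 and 4810 CPM in KO DMSO, against 1960, 4795, 4131 and 4301 CPM in WT DMSO. In replicates 2 to 4 each KO DMSO value lay above each WT DMSO value, though KO DMSO replicate 1 lay below WT DMSO replicate 2. The log2 fold change was 0.37 (SE 0.22) with that library and 0.14 (SE 0.13) without it. Of the mRNAs, mt-Nd1, mt-Nd2, mt-Nd4 and mt-Cytb were higher in 4 of 4 pairs, as were 4.34% of all genes tested. Pair 1 is with WT DMSO replicate 1, so only pairs 2 to 4 are free of that library.

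The distance of WT DMSO replicate 1 from the other WT DMSO libraries was uneven across genes. mt-Nd3 stood at 6.19 CPM there, against 138 to 171 CPM in the other WT DMSO libraries, and mt-Atp6 at 362 against 2441 to 2871 CPM. mt-Rnr1 was less far from the others, at 55.0 against 68.8 to 69.8 CPM, and mt-Tp was within their range, at 9.37 CPM. mt-Atp8 was also within their range, at 38.5 against 24.2 to 43.9 CPM. mt-Atp8 kept a log2 fold change of 0.90 (SE 0.44) for KO DMSO over WT DMSO without that library, and 0.87 (SE 0.38) with it. mt-Rnr1 had 0.06 (SE 0.11) with it and -0.03 (SE 0.09) without it.

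A nuclear gene nearly identical to a mitochondrial one can take its reads. Of the nuclear transcripts listed, 18 matched a member over at least 100 bases at 90% identity or more. Together their counts came to 4.14% to 6.06% of the mitochondrial counts in KO DHT+ENZ and 6.26% to 7.88% in KO DHT. The range was 5.10% to 7.44% in KO DMSO, and 4.38% to 13.8% in WT DMSO with the highest value in replicate 1. Gm28661, an annotated pseudogene of 681 bases, is identical over its whole length to mt-Co2, a gene of 684 bases, and held 29.4% to 52.4% of the counts of the pair. Reads in the shared bases cannot be assigned to either gene by sequence.

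mt-Co2 and Gm28661 together had 5777, 6383, 6775 and 5529 CPM in KO DHT+ENZ, against 4560, 4994, 4196 and 4299 CPM in KO DHT. The sums did not overlap, and the log2 fold change of the sum was 0.49 (SE 0.18), smaller than the 0.71 of mt-Co2 alone. Over KO DMSO, where the sums were 4846, 5441, 5444 and 4905 CPM, the log2 fold change was 0.27 (SE 0.18) for the sum and 0.47 for mt-Co2 alone. With the copy added, mt-Co2 thus lay near the median of the other mRNAs in both comparisons. The sum averaged 4160 ± 1102 CPM in WT DMSO (SD, n = 4). It was 2532 CPM in replicate 1 of that group and 4450, 4911 and 4746 CPM in replicates 2 to 4.

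**Figure D5:**
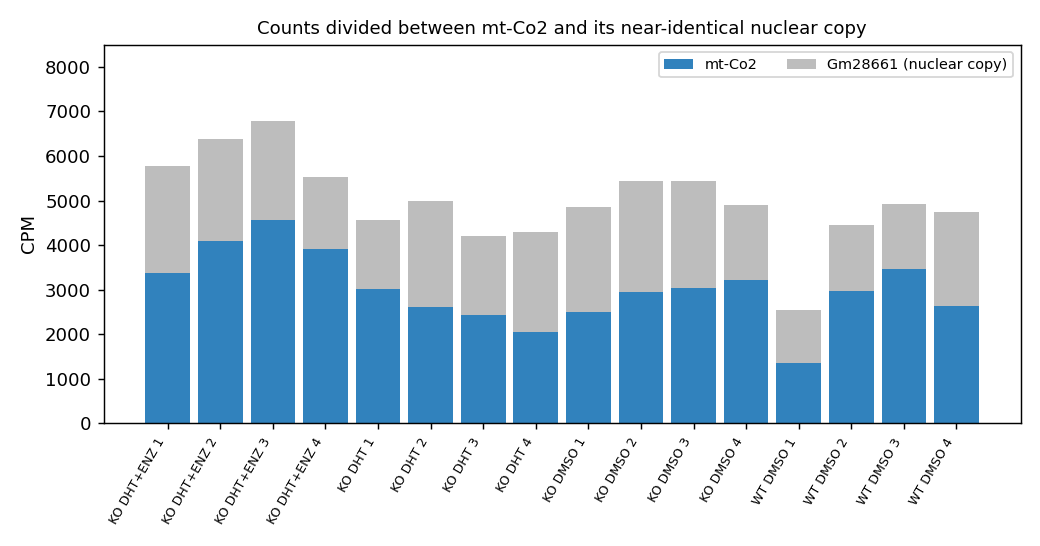
Counts assigned to mt-Co2 (blue) and to its near-identical nuclear copy Gm28661 (grey), stacked, in CPM (vertical axis) for the 16 libraries. The copy takes 29.4% to 52.4% of the sum, and the KO DHT+ENZ sums (5529 to 6775 CPM) lie above the KO DHT sums (4196 to 4994 CPM).

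Copies of other mRNAs held smaller or more variable shares. Gm28438 held 17% to 45.7% of its sum with mt-Nd3 in 15 libraries and 61.2% in WT DMSO replicate 1. These sums were 271, 363, 493 and 216 CPM in KO DHT+ENZ, against 277, 228, 170 and 229 CPM in KO DHT. Pairs 1 and 4 were thus lower with the copy added, although mt-Nd3 alone was higher in each pair. The log2 fold change of the sum was 0.65 (SE 0.50) over KO DHT, against 0.77 for mt-Nd3 alone. Over KO DMSO it was 0.46 (SE 0.50), against 0.60. Gm28437 held 0.141% to 4.03% of its sum with mt-Co3 in 15 libraries but 40.4% in WT DMSO replicate 1. Copies of mt-Co1 and mt-Atp6 held at most 2.75% and 5.44% in any library. Gm28439, a copy of mt-Nd4, had counts only in WT DMSO replicate 1, where it held 6.43%. Adding the 18 matching transcripts to the mitochondrial counts left the difference in library share between KO DHT+ENZ and KO DHT at 1.11 percentage points.

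Replicates differed within groups for some genes more than for others. mt-Nd5, a complex I mRNA toward the far end of the heavy-strand transcript, had 2259, 1726, 1751 and 2303 CPM in KO DHT+ENZ, against 1014, 1815, 1089 and 1911 CPM in KO DHT. It had 1938, 1377, 1071 and 1926 CPM in KO DMSO, against 952, 1563, 804 and 1478 CPM in WT DMSO. Replicates 1 and 4 were the high ones in KO DHT+ENZ and KO DMSO, and replicates 2 and 4 in KO DHT and WT DMSO. As a share of the mitochondrial counts over 15 libraries, mt-Nd5 had a coefficient of variation of 22%, against 3.65% for mt-Co1 and 4.29% for mt-Cytb. Among the mRNAs mt-Atp8 varied most, at 46.1%, and mt-Rnr2 had 26.9%.

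Nuclear genes that make, process or use mitochondrial RNA were counted alongside, in 7 lists chosen by function that hold 265 genes past the filter. In KO DHT+ENZ against KO DHT, edgeR called 1 of them. Dna2, a helicase and nuclease of nuclear and mitochondrial DNA replication, fell to 20.8 ± 1.75 CPM in KO DHT+ENZ, against 29.1 ± 0.716 CPM in KO DHT (SD, n = 4 each). Its log2 fold change was -0.43 (SE 0.08) with an edgeR adjusted p of 0.0406, lower in 4 of 4 pairs, where 0.189% of all genes tested were called lower. Over KO DMSO, at 28.9 ± 2.95 CPM, Dna2 was also the 1 list gene called, with a log2 fold change of -0.45 (SE 0.08; adjusted p = 0.0427, edgeR), where 0.2% of all genes were called lower. The call over KO DHT held in 3 of the 16 fits that each left out 1 library, those without WT DMSO replicate 1, 3 or 4. The call over KO DMSO held in 4 of 16, those and the fit without KO DHT+ENZ replicate 3.

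The median log2 fold change in KO DHT+ENZ over KO DHT was 0.22 for 82 nuclear-encoded respiratory chain subunits, of which 81 had positive values, and 0.12 for 78 mitochondrial ribosomal proteins, of which 75 had. It was 0.17 for 14 chaperones and proteases, 0.09 for 21 tRNA synthetases, 0.06 for 39 RNA processing and decay genes, 0.04 for 21 genes of transcription and mtDNA, and -0.09 for 10 regulators of biogenesis. The median over all genes tested was -0.003, and no list gene other than Dna2 was called. With the replicate number as a block, 14 list genes passed, where 3.48% of all genes did, and over KO DMSO 3 passed, where 2.94% did. They included Cox6a2, a cytochrome c oxidase subunit, at 7.41 ± 0.527 CPM in KO DHT+ENZ and 4.24 ± 0.921 CPM in KO DHT (log2 fold change 0.87, adjusted p = 0.00302, edgeR with block). Sdhc, a complex II subunit, which has no mitochondrially encoded partner, was at 204 ± 9.25 and 171 ± 4.54 CPM in these groups in that order (log2 fold change 0.30, adjusted p = 0.00928, edgeR with block). The median of the respiratory chain list was 0.08 when a trend with transcript length was removed together with the block, against 0.48 for the 13 mitochondrial mRNAs in the same fit. That of the mitochondrial ribosomal proteins was 0.03 in this fit.

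In the other comparisons the 2 largest lists had smaller medians. The respiratory chain list had a median of 0.13 in KO DHT+ENZ over KO DMSO, -0.10 in KO DHT over KO DMSO and 0.07 in KO DMSO over WT DMSO. The mitochondrial ribosomal proteins had 0.03, -0.09 and 0.02 in the same comparisons. With the length trend and block, the medians were 0.09, 0.0 and 0.04 for the respiratory chain list and 0.03, -0.0 and -0.0 for the ribosomal proteins. With no gene called in the last 2 of these comparisons, the smallest unadjusted p-values belonged to genes that did not pass. They were Ndufa12 (log2 fold change -0.37), Qtrt1 (-0.29) and Fars2 (-0.30) with DHT against vehicle, and Pprc1 (-0.27), Ndufs1 (0.19) and Gabpb1 (0.22) with knockout against control, each with an adjusted p of 1 in edgeR. Rn7s1 and Rn7s2, which had the lowest unadjusted p of the noncoding RNA list with knockout against control, rested on WT DMSO replicate 1. The replication-dependent histone list, of mRNAs that lack poly(A) tails, had a median of -0.07 over 36 genes in KO DHT+ENZ over KO DHT, 0.06 in KO DHT+ENZ over KO DMSO, 0.03 in KO DHT over KO DMSO and 0.06 in KO DMSO over WT DMSO. The median of 4 nuclear-retained RNAs was -0.13, 0.39, 0.38 and -0.34 in the same comparisons. All 4 values were positive in KO DHT+ENZ over KO DMSO and in KO DHT over KO DMSO. Replicates differed widely, however, as these RNAs summed to 1072 to 1839 CPM in replicates 1 and 4 of the groups and 235 to 613 CPM in replicates 2 and 3. Neat1 was called in KO DHT+ENZ over KO DMSO with the replicate block (log2 fold change 0.52, adjusted p = 0.0491, edgeR with block). The median of Rn7s1 and Rn7s2 was 0.77, 0.68, -0.09 and -6.3 in the same 4 comparisons, with an SE of 1.7 in those with KO DHT+ENZ, and neither was called. The part of these RNAs in the mitochondrial differences was not tested.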

How the data were processed

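Paired reads of 150 bases were made from polyA RNA of integrity above 8, per the labels' protocols, with 30 M reads sought. Per the submitters' processing notes, kallisto and GRCm39 were used. Their versions are not given in the sources used here. Per the file headers, each deposited file gives estimated counts (expected counts), length, effective length and TPM per transcript. The authors' estimated counts carry no normalization between samples, and the authors' TPM values are scaled by effective length. Transcripts were named from GENCODE M21, an annotation of another build, by identifier without version. Matched transcripts held 98.84% to 99.11% of the counts, no coordinates are given, and TPM was used only for levels per length.

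Gene sums of the estimated counts were rounded. They went into edgeR 4.0.16 (R 4.3.3), in a quasi-likelihood fit of 4 groups and 16 libraries with TMM and filterByExpr, over 16969 genes, with Benjamini-Hochberg adjustment and calls at an adjusted p under 0.05. The SE of a log2 fold change was its size divided by the square root of the F statistic. Unless stated otherwise it is from the fit of all 16 libraries, where WT DMSO replicate 1 shares the estimate of spread in every comparison. CPM, shares, pair counts and overlaps use estimated counts over the library's total, without TMM scaling, and the fold changes include it. On counts simulated for KO DHT+ENZ over KO DHT across 16969 genes, the fit found 37 of 100 genes changed 1.5-fold and 77 of 100 changed 2-fold, with 8 false calls. Nuclear copies were sought with blastn 2.17.0.

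Libraries with the same replicate number deviated together, at r = 0.16 to 0.79 over 9745 genes of at least 10 CPM, above the minimum of 0.1 for every pair in the 4 comparisons. Libraries with different numbers were not compared in this way, so these values cannot show that the numbers mark pairs. The nuclear-retained RNAs, for example, set some replicate numbers apart from others in the same way in every group. The numbers were taken as pairs by assumption, and a replicate block was fitted as an alternative. The block lowered edgeR's biological coefficient of variation to 0.122, against 0.212. Other alternatives were DESeq2 1.42.0, other scalings, no filter, and each library left out in turn. Nothing says that replicates of a group were separate cultures beyond being called biological replicates from 2 litters.

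The mitochondrial genes, the lists and the alternatives were chosen with earlier results of these data known. The 15 mRNAs and rRNAs and each tRNA that passed the filter are named. From the other lists, up to 5 called genes a direction are named, or the 3 smallest unadjusted p-values where none was called. Cox6a2, Sdhc, Neat1, Rn7s1 and Rn7s2 were named after their values were seen. The 2 comparisons with KO DHT+ENZ share libraries with each other and, through KO DHT and KO DMSO, with the other comparisons.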

Additional observations from a re-analysis of the deposited data

Results flagged for a closer look

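Of 72 sets of 4 replicate values examined, 6 held a value far from the other 3, where chance gives about 1 in 20. The number given with each is the gap to the nearest replicate divided by the range, each above the 95% critical value of Dixon's test. The mitochondrial share of KO DHT+ENZ replicate 3 was 4.45%, against 4.27% to 4.30% in the others (0.842). mt-Ts1 in KO DMSO replicate 4 was 1.04 CPM, against 0.358 to 0.366 CPM (0.988). mt-Nd4 in KO DMSO replicate 3 was 2047 CPM, against 2520 to 2562 CPM (0.918). In WT DMSO replicate 1 the mitochondrial share was 1.33%, against 3.22% to 3.56% (0.846), and mt-Rnr1 was 55.0 CPM, against 68.8 to 69.8 CPM (0.929). mt-Tp in WT DMSO replicate 4 was 13.5 CPM, against 9.20 to 9.37 CPM (0.959).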

How the results depend on the processing

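In KO DHT+ENZ over KO DHT, the 2 members called became 14 with the replicate block and without the shallow WT DMSO library, 1 with a transcript length trend and the replicate block, and 0 to 4 when single libraries were left out. The 1 list gene called, of 265, became 14 with the replicate block, 45 with the block and without the shallow library, 9 with the length trend and block, 6 with DESeq2, 0 with no filter and 0 to 1 when libraries were left out. Calls over all genes rose as well, to 3.48% with the block and 8.58% with the block and without the shallow library. DESeq2 called 211 of 16969 genes. In KO DHT+ENZ over KO DMSO, the 2 members became 1 with RLE size factors, 0 with no filter, 11 with the block and without the shallow library, 1 with the length trend and block, and 0 to 2 when libraries were left out. The 1 list gene became 3, 8, 7, 2 and 0 under the replicate block, the block without the shallow library, the length trend with block, DESeq2 and no filter, and 0 to 1 when libraries were left out. Over all genes, 2.94% were called with the block and 7.24% with the block and without the shallow library. DESeq2 called 180 of 16969 genes here. The cause was not tested. With the replicate block alone no member's call changed in any comparison.

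By deposited TPM the difference in library share was 2.33, 1.58 and -0.75 points for KO DHT+ENZ over KO DHT, KO DHT+ENZ over KO DMSO and KO DHT over KO DMSO, against 1.11, 0.75 and -0.36 by counts. Leaving out libraries gave 0.99 to 1.23, 0.71 to 0.79 and -0.48 to -0.25, and 0.22 to 0.96 for KO DMSO over WT DMSO (0.73 with all). The mRNA share of mitochondrial counts differed by 0.79, 0.45, -0.34 and 0.15 points in the 4 comparisons in that order, with ranges of 0.58 to 0.97, 0.35 to 0.55, -0.52 to -0.13 and 0.02 to 0.28.

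Signs turned in KO DHT over KO DMSO when libraries were left out, where log2 fold changes were -0.05 to 0.06 for mt-Rnr1, -0.03 to 0.12 for mt-Rnr2, -0.50 to 0.19 for mt-Ts1, -0.43 to 0.00 for mt-Nd4l, -0.29 to 0.01 for mt-Nd5 and -0.21 to 0.01 for mt-Tp. They turned in KO DMSO over WT DMSO for mt-Rnr1 (-0.03 to 0.12), mt-Co2 (-0.05 to 0.38) and mt-Co3 (-0.00 to 0.55), the low end being without WT DMSO replicate 1, and with the replicate block added were -0.05 for mt-Rnr1 and -0.01 for mt-Co2. In KO DHT+ENZ over KO DMSO they turned for mt-Atp8 (-0.17 to 0.38, -0.01 with the replicate block, -0.04 with the block and without the shallow library, -0.22 with the length trend and block) and mt-Ts1 (-0.19 to 0.64, and -0.24 with the length trend and block, which also gave -0.04 for mt-Ts1 in KO DHT+ENZ over KO DHT). No sign of a called member turned under any alternative run, which is a description only. Members were called only in the comparisons with KO DHT+ENZ, on which the set was chosen. Counts of 4 to 34 per library limit the precision of mt-Ts1.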
